A study of Mus musculus with 31 samples.

Results

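The alpha and beta tubulins described here were 10 genes: the alpha isotypes Tuba1a, Tuba1b and Tuba4a, and the beta isotypes Tubb2a, Tubb2b, Tubb3, Tubb4a, Tubb4b, Tubb5 and Tubb6. They were chosen by symbol, not by their values, as the rows of the raw count tables whose Ensembl IDs carry those symbols in the GENCODE M21 annotation. They were 10 of the 55536 genes listed, and all 10 passed the filter on low counts in each of the 9 comparisons.

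Alpha and beta tubulin pair as the heterodimer from which microtubules are built, the tracks along which motor proteins carry cargo through an axon. Vertebrates hold several genes for each partner, and the products differ most at the acidic C-terminal tail, where enzymes add or remove tyrosine and glutamate. Tubb3 is the beta isotype used as a neuronal marker, whereas Tubb6 is known mainly from cells outside the nervous system. Cells also hold tubulin mRNA in check through a feedback in which TTC5 binds the nascent N-terminus of alpha and beta tubulin on the ribosome and the mRNA is then degraded.

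RNA bound to ribosomes of dorsal root ganglion (DRG) neurons was recovered by translating ribosome affinity purification (TRAP) and sequenced in 31 mouse libraries. Cre libraries came from Nav1.8-Cre;L10a-eGFP-fl/fl mice (the genotype label; the sample titles write L10a-eGP), in which Cre from the locus of Scn10a, the sodium channel Nav1.8, turns on the GFP-tagged ribosomal protein L10a, so the tag marks neurons with a Nav1.8 history rather than all DRG neurons. Negative controls were L10a-eGFP-fl/fl mice, which carry the same L10a-eGFP allele without Cre, so their libraries hold RNA recovered without a tagged ribosome. Batch 1 held central axons (lumbar dorsal root with spinal cord; 4 Cre, 4 control) and somas (lumbar DRG; 4 Cre, 4 control), and batch 2 held peripheral axons (sciatic nerve; 4 Cre, 3 control) and somas (4 Cre, 4 control). Age, sex and treatment were not given in the labels used here. The labels call the samples biological replicates but do not say how many animals gave each, so the p-values measure the spread between these libraries.

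Library totals ran from 3601399 to 19637292 counts, so that 3 counts, the limit that a count of 0 allows, stood for 0.153 to 0.833 CPM, the count scaled to the library total. Of the soma controls of batch 1, the tables gave 2 with a shared column name, so these are called a and b here. Soma control 3 of batch 1 stood apart, with 4934 genes at 10 or more counts and a TMM scaling factor of 0.0547. Most controls correlated better across genes with the Cre libraries of their compartment than with their own group (mean Spearman). Examples were soma control 5 of batch 2 (0.918 against 0.843), central axon control 1 (0.870 against 0.731) and peripheral axon control 1 (0.864 against 0.795). The exceptions were central axon control 3, soma control b of batch 1, peripheral axon control 4 and soma control 7 of batch 2. Scn10a was at 45.1 to 421 CPM in central axon Cre libraries against 0 to 29.9 CPM in their controls. The test described below did not call that difference (log2 fold change 4.52, SE 1.72, edgeR adjusted p = 0.818). In the other compartments the Scn10a ranges in Cre and control libraries overlapped. Rpl10a, the gene for L10a, overlapped between Cre and control libraries in every compartment and was not called. Its log2 fold changes were -0.16 in central axons, 0.67 in peripheral axons, 0.74 in somas of batch 1 and -0.02 in somas of batch 2.

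The coding sequences show what the counting had to tell apart, and where the isotypes differ. The first 30 coding bases, from the GENCODE M21 transcripts on GRCm38, are printed for 4 isotypes with the first 4 codons in capitals, the stretch that encodes the N-terminus read by the mRNA feedback.
Tuba1a: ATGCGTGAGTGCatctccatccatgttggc
Tuba4a: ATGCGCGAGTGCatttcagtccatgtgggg
Tubb3: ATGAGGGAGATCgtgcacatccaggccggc
Tubb5: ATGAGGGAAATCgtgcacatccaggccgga
The codon for the residue after the start, a synonymous arginine codon, varied between isotypes, and the fourth codon separated alpha (TGC) from beta (ATC).

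The last 60 coding bases encode the C-terminal tail, and those of Tuba4a and 6 beta isotypes are shown with the last sense codon in capitals before the stop codon.
Tuba4a: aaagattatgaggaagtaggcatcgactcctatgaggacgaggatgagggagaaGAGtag
Tubb2a: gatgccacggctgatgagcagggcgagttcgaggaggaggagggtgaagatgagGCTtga
Tubb2b: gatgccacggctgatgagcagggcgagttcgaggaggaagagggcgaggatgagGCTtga
Tubb3: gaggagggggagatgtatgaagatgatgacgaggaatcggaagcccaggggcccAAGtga
Tubb4a: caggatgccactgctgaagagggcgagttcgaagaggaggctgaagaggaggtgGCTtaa
Tubb4b: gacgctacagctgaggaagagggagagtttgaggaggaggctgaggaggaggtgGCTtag
Tubb5: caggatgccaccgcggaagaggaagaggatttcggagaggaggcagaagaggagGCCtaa
Tuba4a ends in a glutamate codon (GAG). Tubb3 ends in a lysine codon (AAG) and the other 5 beta isotypes shown end in an alanine codon (GCT or GCC).

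Tuba1a (ENSMUSG00000072235) lies at chr15:98949837-98953703 on the minus strand, and Tuba1b (ENSMUSG00000023004) lies near it at chr15:98931425-98934565, also on the minus strand. Their coding sequences matched at 1333 of 1356 bases (98.3%), the closest pair of the 10. Tubb2a (ENSMUSG00000058672, chr13:34074274-34078007, minus strand) and Tubb2b (ENSMUSG00000045136, chr13:34126748-34130466, minus strand) matched at 96.49%. Tuba4a (ENSMUSG00000026202) lies at chr1:75214228-75219865 on the minus strand, and 37.3% of its exon length is overlapped on the opposite strand by Stk16. Tubb3 (ENSMUSG00000062380) lies at chr8:123411424-123422015 on the plus strand, Tubb4a (ENSMUSG00000062591) at chr17:57080066-57087782, Tubb4b (ENSMUSG00000036752) at chr2:25222160-25224702 and Tubb5 (ENSMUSG00000001525) at chr17:35833921-35838306, the last 3 on the minus strand. The gene ID of Tubb6 is ENSMUSG00000001473.

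How well a read can be placed therefore differed between isotypes. The share of 50-base stretches of a gene's exons that also occur in another gene was 75.5% for Tuba1a, 83.1% for Tuba1b, 55.5% for Tubb4b, 49.6% for Tubb2a, 48.8% for Tuba4a and 39.3% for Tubb2b. It was 0.184% for Tubb4a, 0.115% for Tubb5 and 0% for Tubb3 and Tubb6. Values of the first 6 are therefore uncertain where the authors' counting could split or drop shared reads, a handling that is not given in the sources used here. Tuba4a differs in kind: of its 100-base stretches 46.7% were shared, with Stk16 alone, the gene that overlaps it on the opposite strand. Its uncertainty thus lies mainly in assigning reads within that overlap, which depends on the strand setting. A same-strand gene model over part of Tuba1a and Tuba1b, Gm49450, had 0 counts in all 31 libraries.

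Levels between genes are compared here as CPM per kb of exon length, and levels of 1 gene across libraries as CPM. Tuba1a had the highest mean level per kb in 7 of the 8 groups, from 473 CPM per kb in peripheral axon controls to 1598 in soma controls of batch 2. The exception was the Cre somas of batch 2, where Tubb3 was first (1269 CPM per kb, 1196 to 1454) and Tuba1a second (1119, 764 to 1406), with overlapping ranges. Tubb2a, Tubb3 and Tubb5 took the next places in all other groups, and neighbours among these 4 isotypes overlapped wherever they were adjacent. Tuba4a and Tubb6 took the last 2 places in each group.

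**Figure D1:**
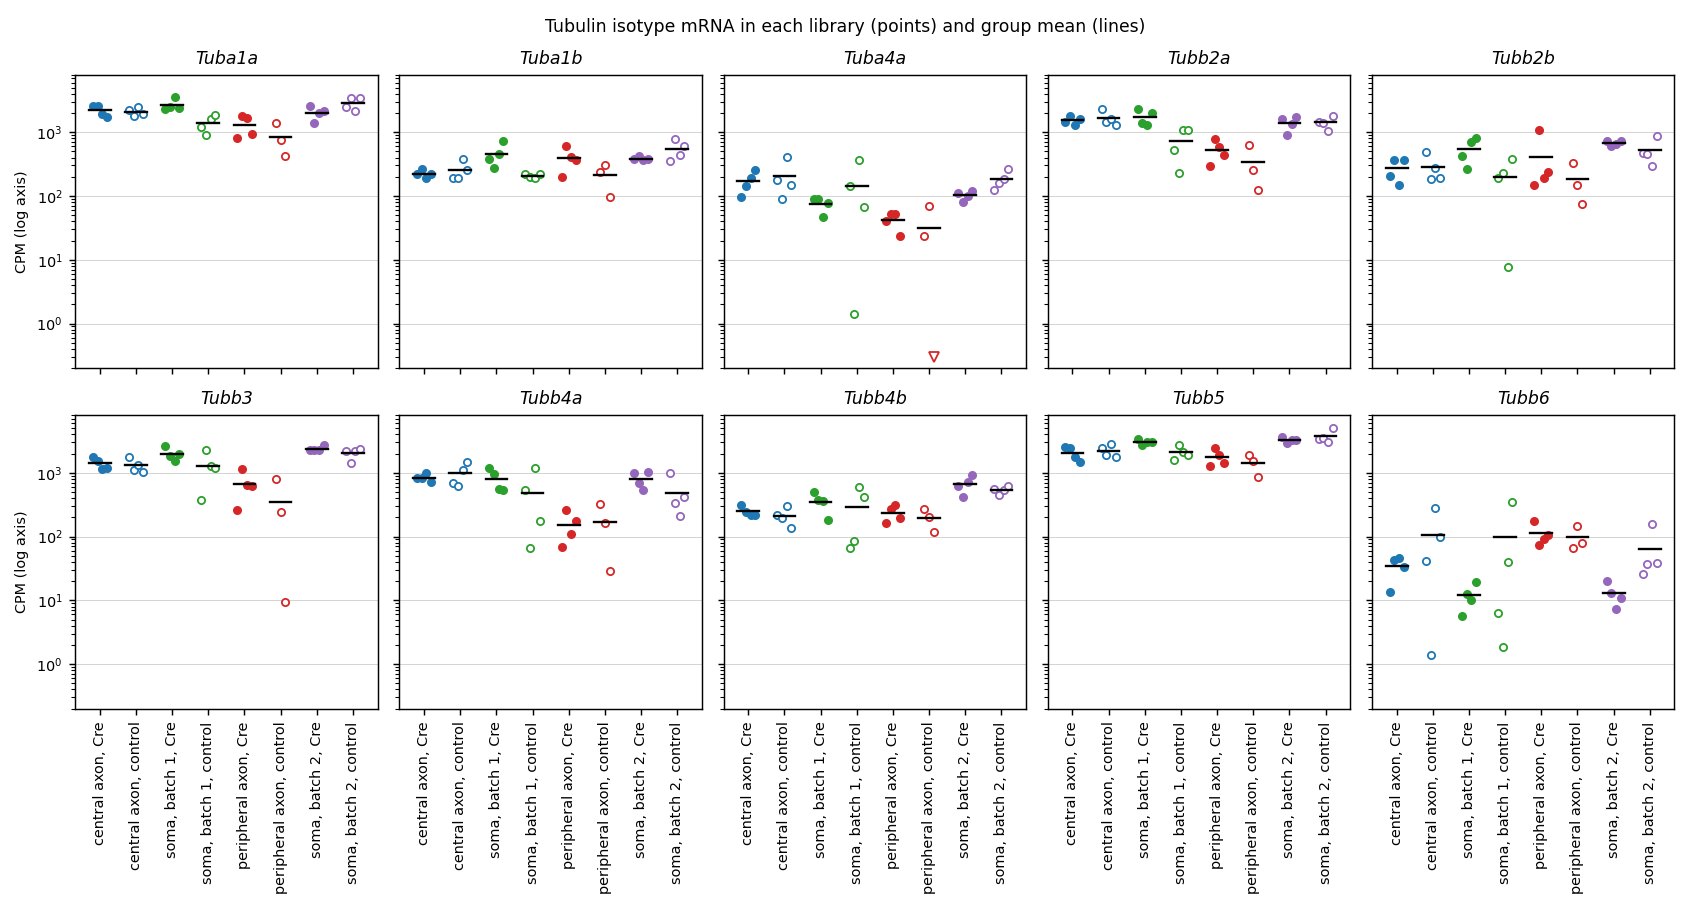
Each panel gives 1 isotype: points are single libraries (filled for Cre, open for control), the y axis is CPM on a log scale and black lines are group means. An open triangle at the foot stands for 0 counts (Tuba4a in peripheral axon control 4). Tubb6 is the isotype whose points lie higher in peripheral axon Cre libraries than in Cre somas of batch 2, and the lowest group means of Tubb4a are those of the sciatic nerve groups (154 and 171 CPM).

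Axon was compared with soma in Cre libraries within each batch, by edgeR's quasi-likelihood test over all genes, with a gene called at a Benjamini-Hochberg adjusted p under 0.05. In sciatic nerve axons 6 of the 10 tubulins were called lower than in the somas of batch 2 and 1, Tubb6, higher, whereas in central axons 2 were called lower than in the somas of batch 1 and 0 higher. Over all genes, 12.5% were called lower and 18.7% higher in the peripheral comparison (31.2% in all), and 5.11% lower and 8.63% higher in the central one (13.7% in all). The median log2 fold change of the tubulins was -1.27 in peripheral axons, against -0.03 over all genes tested. In central axons it was -0.83, against 0.05 over all genes. Scaling by library size alone moved the all-gene median to 0.17 and 0.50 and the tubulins' median to -1.10 and -0.39, so the tubulins' median stayed below that of all genes in both batches. Library size alone also split the central calls into 2146 higher and 293 lower, against 1250 and 740 with TMM. In bulk libraries such as these, fewer cells of a type and less RNA per cell cannot be told apart.

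Tissue composition moved with both comparisons. In sciatic nerve Cre libraries the summed level of 8 Schwann cell markers, all with counts, was 10350 to 28153 CPM against 442 to 645 CPM in the Cre somas of batch 2, and that of 6 fibroblast markers 3816 to 6686 against 173 to 364 CPM. In the same order, 5 skeletal muscle markers summed to 620 to 2440 against 15.5 to 80 CPM. The sum of 9 general neuronal markers was 2585 to 10199 CPM in those axons against 16749 to 18191 CPM in the somas. In central axon Cre libraries the sum of 6 astrocyte markers was 296 to 1347 CPM against 1.98 to 32 CPM in Cre somas of batch 1, and that of 5 spinal neuron markers 84.2 to 291 against 1.27 to 6.99 CPM, with Slc32a1, Gad2, Slc6a5 and Chat at 0 in those somas. Schwann cell markers summed to 737 to 5620 CPM in those axons against 323 to 1729 CPM, and general neuronal markers to 8775 to 14668 CPM against 14868 to 23487 CPM. Satellite glia markers summed to 1192 to 3744 against 151 to 468 CPM, and oligodendrocyte markers to 120 to 860 against 48.5 to 137 CPM, which overlapped. The part of these markers in the tubulin results was not tested.

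**Figure D2:**
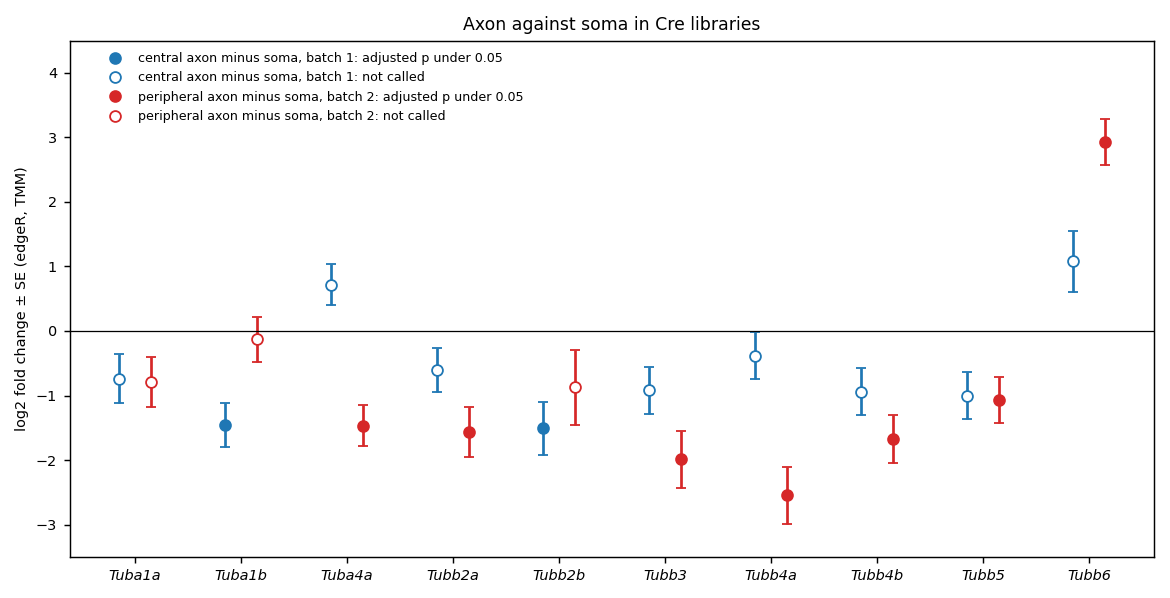
Points are edgeR log2 fold changes of axon against soma in Cre libraries (4 against 4 in each batch), bars are standard errors and filled points passed the adjusted p. Tubb6 lies above 0 in both comparisons, Tuba4a on opposite sides of 0 (0.72 and -1.47), and the remaining 8 isotypes below 0, of which Tuba1b (peripheral) and Tubb4a (central) cross 0 when scaled by library size alone.

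Tubb3, the neuronal beta isotype, was at 2293, 2236, 2235 and 2716 CPM in the 4 Cre somas of batch 2 and at 265, 1133, 652 and 624 CPM in the peripheral axon Cre libraries. The groups did not overlap, and library 1 of the axons was the lowest. The log2 fold change was -1.99 (SE 0.44, edgeR adjusted p = 0.00609). In batch 1 the central axon libraries had 1744, 1512, 1136 and 1204 CPM and the somas 2624, 1844, 1501 and 1954 CPM. Those groups overlapped, and the log2 fold change of -0.92 (SE 0.36) was not called (edgeR adjusted p = 0.105). It was called by edgeR without central axon library 1 (-1.23, adjusted p = 0.0342) and by DESeq2 (-0.90, adjusted p = 0.0169).

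Tubb4a, an isotype of neurons and myelinating glia, had the lowest log2 fold change of the 10 in peripheral axons. Its levels were 67.4, 265, 110 and 175 CPM there against 999, 683, 544 and 1018 CPM in the somas of batch 2. Every soma library was above every axon library, and the log2 fold change was -2.55 (SE 0.44, edgeR adjusted p = 0.00139). Central axons had 830, 824, 988 and 708 CPM and the somas of batch 1 1192, 941, 552 and 537 CPM, so those groups overlapped. The log2 fold change there was -0.38 (SE 0.36, edgeR adjusted p = 0.514), and 0.06 when scaled by library size alone.

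Tuba4a, the alpha isotype that ends in a glutamate codon, was at 40.1, 52.1, 52 and 23.2 CPM in peripheral axon Cre libraries and at 110, 80.6, 101 and 119 CPM in the somas of batch 2. The groups did not overlap, and the log2 fold change was -1.47 (SE 0.32, edgeR adjusted p = 0.00565). In central axons it was at 95, 145, 190 and 252 CPM, each above the 88.8, 88.7, 46.8 and 76.1 CPM of the somas of batch 1. That separation, which 21% of all genes tested also showed in the same direction, gave a log2 fold change of 0.72 (SE 0.32) that was not called (edgeR adjusted p = 0.15), though it was with library size alone (1.19, adjusted p = 0.0329). Stk16, which overlaps Tuba4a on the opposite strand, had means of 103 CPM in central axons, 72 in somas of batch 1, 75.4 in peripheral axons and 107 in somas of batch 2. Its log2 fold changes, 0.05 (SE 0.38) and -0.70 (SE 0.28), were called in neither comparison (edgeR adjusted p = 0.951 and 0.0749).

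Tubb6 was the isotype that rose in peripheral axons. It was at 176, 74.2, 92 and 107 CPM in the peripheral axon Cre libraries and at 20.4, 12.9, 7.23 and 10.8 CPM in the somas. No axon library fell within the soma range, and the log2 fold change was 2.93 (SE 0.35, a 7.62-fold difference, edgeR adjusted p = 0.000144). In central axons it was at 13.4, 43.1, 46.8 and 33.7 CPM against 5.7, 12.5, 10.2 and 19.5 CPM in the somas of batch 1. Central axon library 1 lay inside the soma range, and the log2 fold change of 1.08 (SE 0.47) was not called (edgeR adjusted p = 0.144). Peripheral axon controls held Tubb6 at 66, 148 and 79.7 CPM, overlapping the range of the Cre libraries. The lowest value in the somas of batch 2, 7.23 CPM, rested on 142 counts (95% Wilson interval 6.14 to 8.52 CPM, for counting error only), and the lowest in batch 1, 5.7 CPM, on 55 counts (4.38 to 7.41 CPM).

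Tubb2a fell in peripheral axons: its libraries had 292, 774, 578 and 441 CPM against 1610, 886, 1323 and 1714 CPM in the somas of batch 2 (-1.57 on the log2 scale, SE 0.39, edgeR adjusted p = 0.0108), with no overlap. In batch 1 the central axon libraries spanned 1298 to 1796 CPM and the somas 1281 to 2278 CPM, and the difference of -0.61 (SE 0.34) was not called (edgeR adjusted p = 0.262).

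Tubb2b, its near-identical neighbour, had 206, 361, 149 and 361 CPM in central axons against 427, 266, 713 and 807 CPM in the somas of batch 1. The ranges overlapped, and the log2 fold change of -1.51 (SE 0.41) was called (edgeR adjusted p = 0.0299). The call was lost in edgeR fits without central axon library 2, 3 or 4 or soma library 3 (adjusted p = 0.0554, 0.0897, 0.0542 and 0.0753) and with library size alone (adjusted p = 0.0932). In peripheral axons library 2 stood apart, at 1087 CPM against 150, 190 and 233 CPM in libraries 1, 3 and 4, and the somas of batch 2 had 724, 609, 644 and 737 CPM. With all libraries the log2 fold change was -0.87 (SE 0.58, edgeR adjusted p = 0.276), and without peripheral axon library 2 it was -2.11 and called (adjusted p = 0.000796).

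Tubb4b, a broadly expressed isotype, was at 164, 275, 317 and 194 CPM in peripheral axons and at 627, 418, 722 and 929 CPM in the somas of batch 2. The groups did not overlap, and the log2 fold change was -1.68 (SE 0.37, edgeR adjusted p = 0.0054). In central axons it was at 218 to 314 CPM against 179 to 497 CPM in the somas of batch 1, a difference of -0.94 (SE 0.37) that was not called (edgeR adjusted p = 0.104). It was called without central axon library 1 (-1.26, edgeR adjusted p = 0.0451) and without soma library 4 (-1.19, adjusted p = 0.0226). Fam166a overlaps 5.8% of the exon length of Tubb4b on the opposite strand. Its Cre means differed by batch, at 0.279 CPM in central axons and 0.104 CPM in somas of batch 1. In batch 2 they were 97 CPM in peripheral axons and 149 CPM in somas, a difference not called (-0.77, SE 0.46, edgeR adjusted p = 0.224). Whether its reads bear on Tubb4b was not tested.

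Tubb5, the most abundant beta isotype by CPM, was at 1266, 2448, 1920 and 1417 CPM in peripheral axons and at 3695, 2931, 3264 and 3308 CPM in the somas of batch 2. The groups did not overlap. The log2 fold change of -1.07 (SE 0.36) was called narrowly (edgeR adjusted p = 0.0398), and the call held in 3 of 8 fits that each left out 1 library. It was lost without peripheral axon library 4 (adjusted p = 0.0867) and without soma library 5, 6, 7 or 8 (0.0857, 0.056, 0.0909 and 0.0938 by edgeR). In central axons Tubb5 was at 2504, 2416, 1789 and 1493 CPM, each below the 3391, 2709, 3037 and 3072 CPM of the somas of batch 1. A separation in that direction was found for 4.17% of all genes tested. The fitted level was 2-fold lower (SE 0.37 on the log2 scale), which edgeR did not call (adjusted p = 0.091); it was called without central axon library 1 (-1.28, edgeR adjusted p = 0.0308) and by DESeq2 (-0.98, adjusted p = 0.00745).

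Tuba1b, an alpha isotype of many cell types, was at 219, 261, 193 and 223 CPM in central axons, each below the 385, 270, 452 and 720 CPM of the somas of batch 1. The log2 fold change was -1.46 (SE 0.34, edgeR adjusted p = 0.0142), and the call was lost without central axon library 3 (-1.39, adjusted p = 0.0509). In batch 2 the peripheral axons had 195, 597, 414 and 367 CPM and the somas 374, 419, 364 and 380 CPM, overlapping, with a log2 fold change of -0.13 (SE 0.35, edgeR adjusted p = 0.795) that was 0.04 with library size alone. Tuba1a, the main alpha isotype of neurons, was called in neither comparison: -0.74 (SE 0.38, edgeR adjusted p = 0.212) in central and -0.79 (SE 0.39, adjusted p = 0.147) in peripheral axons. DESeq2 called the peripheral difference (-0.90, adjusted p = 0.0386). Its libraries spanned 1755 to 2554 CPM in central axons, 2335 to 3597 in somas of batch 1, 820 to 1812 in peripheral axons and 1378 to 2536 in somas of batch 2.

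The axon-to-soma difference itself was then compared between central and peripheral axons, as an interaction in 1 fit of the 16 Cre libraries. For Tuba4a it was 2.35 higher on the log2 scale in central axons (SE 0.48, edgeR adjusted p = 0.0039), and for Tubb4a 2.32 higher (SE 0.56, adjusted p = 0.0115). Those 2 of the 10 tubulins were called higher and 0 lower, against 7.2% and 5.88% of all genes (13.1% in all), and the tubulins' median was 0.57 against 0.26 over all genes. Both calls held in 16 of 16 fits that each left out 1 library, with values from 2.10 to 2.53 for Tuba4a and from 2.07 to 2.76 for Tubb4a. Stk16 was not called in this comparison (0.91, SE 0.49, edgeR adjusted p = 0.232). Tubb6 came next, at -1.68 (SE 0.58, edgeR adjusted p = 0.0587), and was called with RLE scaling (-1.81, adjusted p = 0.0443), by DESeq2 (-1.81, adjusted p = 0.0196) and without peripheral axon library 2 (-1.81, adjusted p = 0.0463) or soma library 1 of batch 1 (-1.99, adjusted p = 0.0267). Tuba1b was not called (-1.15, SE 0.48, edgeR adjusted p = 0.115) but was by DESeq2 (-1.26, adjusted p = 0.0486) and without peripheral axon library 1 (-1.39, edgeR adjusted p = 0.0322). Tubb3 (1.22, SE 0.55, edgeR adjusted p = 0.144) was called without peripheral axon library 2 (1.64, adjusted p = 0.0375). The remaining 5 isotypes lay between -0.45 and 1.13 and were not called. Batch and axon type cannot be told apart in this comparison beyond what the somas of each batch take up.

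The mix of isotypes was described as shares of each family. Tuba1a made up 87.7% ± 2.95 (SD, n = 4) of the summed alpha level per kb in central axon Cre libraries, 84.8% ± 5.79 in somas of batch 1, 76.6% ± 3.72 in peripheral axons and 82.2% ± 4.47 in somas of batch 2 (n = 4 each). Tuba1b took most of the rest, at 8.75% ± 1.14, 14% ± 5.76, 22.1% ± 4.09 and 15.8% ± 4.38 in the same order. Its central and peripheral ranges did not overlap (7.5 to 10.3% and 18.2 to 27%), although these shares rest on 2 genes that share most of their sequence. The control ranges of Tuba1b also lay apart, at 7.27 to 11.8% in central and 14 to 27.1% in peripheral axons.

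Among the beta isotypes, Tubb5 made up 34% ± 5.03 (SD, n = 4) of the summed level per kb in peripheral axon Cre libraries against 24.3% ± 2.26 in the somas of their batch, and 20.7% ± 2.87 in central axons against 24.3% ± 2.85. Tubb2a had the largest share in central axons, 32.5% ± 3.78, against 27.7% ± 3.34 in the somas of batch 1. Tubb3 made up 25.3% ± 2.58 of the beta level in central axons, 27.6% ± 2.15 in somas of batch 1, 21.2% ± 4.37 in peripheral axons and 31.1% ± 3.02 in somas of batch 2. Tubb4a made up 4.17% ± 1.31 in peripheral axons and 8.78% ± 1.72 in somas of batch 2, with no overlap (3.08 to 5.83% and 6.3 to 10.2%), and 13% ± 2.81 in central axons. Tubb6 made up 3.6% ± 2.81 in peripheral axons, 0.491% ± 0.237 in central axons, 0.134% ± 0.0653 in somas of batch 1 and 0.129% ± 0.0531 in somas of batch 2. In controls, Tubb5 made up 43.1% ± 11.6 in peripheral axons (n = 3) and 29.3% ± 3 in somas of batch 2 (n = 4). In the same order, Tubb6 made up 4.71% ± 2.85 and 0.757% ± 0.807, and Tubb3 12.3% ± 11.1 and 28.6% ± 5.27. Tubb4a was alike in these controls, at 5.85% ± 2.76 and 5.62% ± 3.75. Shares within a family are tied to each other, and no test was run on them. Summed over each family, beta exceeded alpha per kb by a mean ratio of 2.15 ± 0.114 in central axons, 2.26 ± 0.698 in somas of batch 1, 1.72 ± 0.236 in peripheral axons and 3.07 ± 0.324 in somas of batch 2 (SD, n = 4 each). The control ratios in the same order were 2.3 ± 0.276, 2.54 ± 0.946, 1.82 ± 0.215 (n = 3) and 2.04 ± 0.477. The alpha sum rests mainly on Tuba1a and Tuba1b, which share most of their sequence, so these ratios depend on how shared reads were counted.

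**Figure D3:**
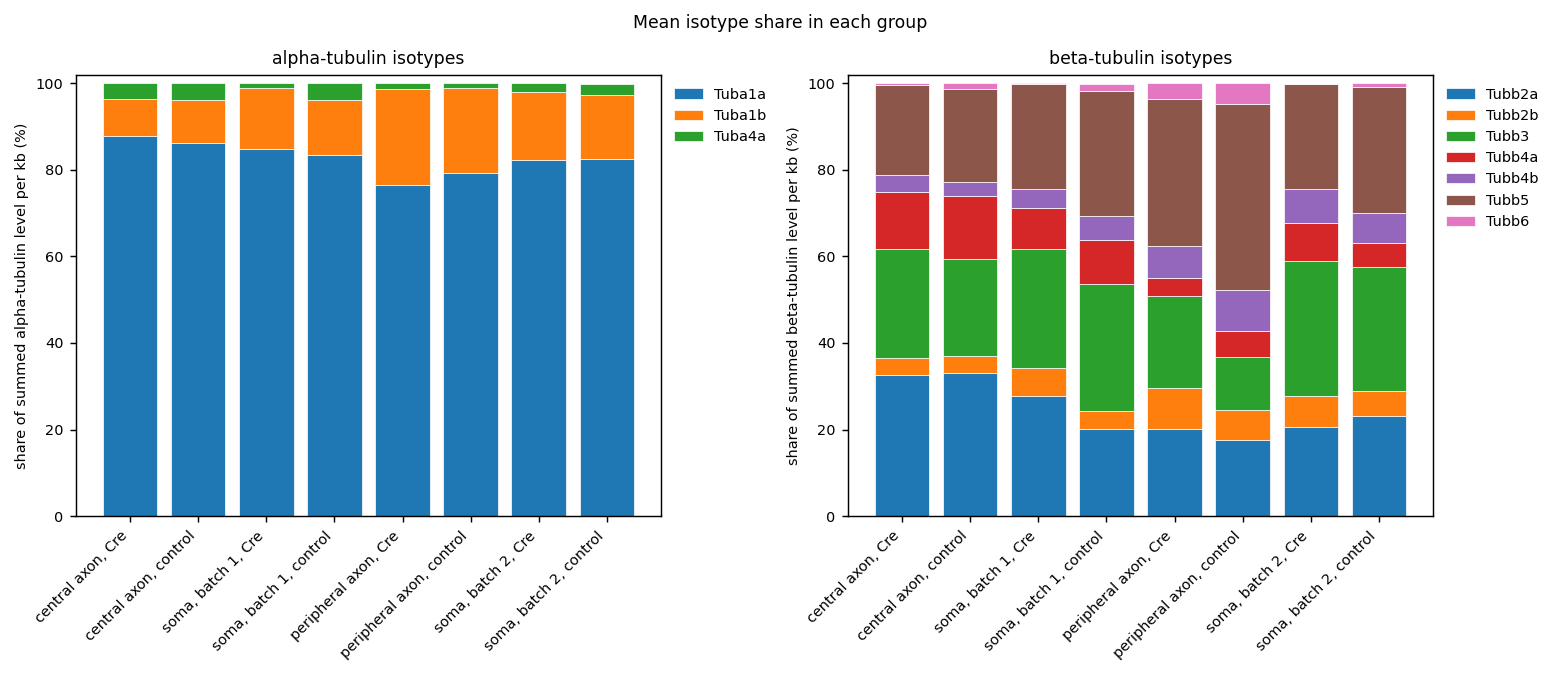
Stacked bars give the mean share (%) of each isotype in the summed alpha (left) or beta (right) level per kb in the 8 groups (4 libraries each, 3 for peripheral axon controls). Tuba1a fills 76.6 to 87.7% of the alpha bars, and Tubb5 and Tubb6 are widest in the 2 peripheral axon groups.

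Cre libraries were compared with the control libraries, in which no ribosome was tagged, for what the tag adds. Between central axon Cre and control libraries 0 of the 10 were called by edgeR, against 2 of 14189 genes (0.0141%; 34 without the low-count filter and 216 by DESeq2). An unadjusted p under 0.05 was found for 0 tubulins against 4.82% of all genes, and groups that did not overlap for 0 against 8.11%. The log2 fold changes of 9 isotypes lay between -0.25 and 0.29, and that of Tubb6 was -1.61 (SE 1.08), with controls at 41.5, 1.41, 282 and 98 CPM, and was -0.48 without control 3. In peripheral axons 0 of 10 were called, against 0% of 13970 genes (27 genes by DESeq2), and 0 had an unadjusted p under 0.05, against 3.68% of all genes (514). There 9 of 10 fold changes were above 0, up to 1.27 (SE 0.79) for Tubb2b, which was 0.11 without Cre library 2 and 1.92 without control 1. Without control 1 those of Tubb2a (0.73) and Tubb3 (1.03) were 1.48 and 2.35, and without control 2 that of Tuba4a (0.41) was 1.98. Without control 4 those of Tubb2a, Tubb3 and Tuba4a fell to 0.32, 0.47 and -0.16. In these axons 0 isotypes separated Cre from control, against 6.44% of all genes. At the spread of these libraries no difference between tagged and untagged axon samples was detected for a tubulin, which does not show that they were equal.

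In the somas of batch 2 0 of 10 were called as well, against 0% of 15280 genes (16.4%, or 2503 genes, had an unadjusted p under 0.05, among them 1 tubulin). RLE scaling called 21 genes there and DESeq2 1160. Of the 10, 2 were lower in every Cre soma than in every control, a separation in that direction that 7.58% of all genes showed. Tuba4a was at 110, 80.6, 101 and 119 against 122, 162, 186 and 265 CPM, and was not called (-0.57, SE 0.29, edgeR adjusted p = 0.359). Tubb6 was at 20.4, 12.9, 7.23 and 10.8 against 25.5, 37.2, 156 and 39 CPM. Its log2 fold change was -2.04 (SE 0.59, edgeR adjusted p = 0.12), and it was called without soma control 5 (-2.29, adjusted p = 0.0339) and by DESeq2 (-2.13, adjusted p = 0.00991). Without soma control 7, at 156 CPM, it was -1.17 and not called. Tubb4a was at 991, 335, 207 and 411 CPM in the controls, where control 5 alone reached the Cre range. Its log2 fold change of 0.96 (SE 0.46, edgeR adjusted p = 0.325) became 1.63 without soma control 5 and was called (adjusted p = 0.0223). Fibroblast markers summed to 173 to 364 CPM in the Cre somas and 907 to 3656 CPM in the controls, and large-diameter sensory neuron markers to 240 to 344 against 372 to 2101 CPM. Their part in these differences was not tested.

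In the somas of batch 1 0 of 10 tubulins were called, against 516 of 11667 genes (4.42%), with 1 tubulin at an unadjusted p under 0.05, against 15% of all genes. The direction depended on 1 library. With TMM scaling all 10 fold changes were negative, with a median of -1.62 against -0.45 over all genes, while without soma control 3 the tubulins' median was 0.60 and with library size alone 0.66. In CPM, Tuba1a, Tuba1b and Tubb2a were higher in every Cre soma than in every control, for example Tuba1a at 2335, 2454, 3597 and 2385 CPM against 1200, 904, 1634 and 1859 CPM, but 28% of all genes tested separated in the same way. Control 3 had Tubb3 at 2249 CPM and Tubb5 at 2736 CPM, but Tuba4a at 1.4 CPM (13 counts, 95% Wilson interval 0.82 to 2.4).

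The Cre-to-control difference was also compared between axon and soma within each batch. In batch 1 0 tubulins and 0% of 15355 genes were called by edgeR, with an unadjusted p under 0.05 for 0 tubulins and 20.4% of genes (3133) and 582 genes called by DESeq2, with a tubulin median of -0.37 that was 1.33 under RLE scaling. In batch 2 0 tubulins and 1 of 15717 genes (0.00636%) were called. An unadjusted p under 0.05 was found there for 1 tubulin, Tubb6, against 9.74% of all genes (log2 difference 2.16, SE 0.79, edgeR adjusted p = 0.371; 1.33 without soma control 7).

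The contrast between axon and soma was therefore set beside the same contrast in controls, which share no library with it. From mean CPM, 9 of 10 tubulins moved in the same direction from soma to sciatic nerve in control libraries as in Cre libraries, the exception being Tuba1b, against 68.7% of all genes tested in the Cre comparison. In these controls 7 of 10 were lower in every nerve library than in every soma library and 0 higher, against 7.06% and 7.35% of those genes. For Tubb3 the control nerve libraries had 799, 243 and 9.43 CPM against 2181, 1404, 2173 and 2375 CPM in control somas, a log2 ratio of means of -2.54 against -1.83 in Cre libraries. For Tubb6 the log2 ratio was 0.60 in controls (means 97.8 and 64.4 CPM, overlapping) and 3.13 in Cre libraries (112 and 12.8 CPM). With 1 control left out, the control ratio ran from 0.18 (without peripheral axon control 2) to 1.53 (without soma control 7). Without soma control 7 the 3 remaining soma controls (25.5, 37.2 and 39 CPM) were all below the nerve controls. In batch 1, 4 of 10 pointed the same way, against 66.4% of all genes tested. Of the 10, 1 was higher and 0 lower in every central axon control than in every soma control, against 9.58% and 0.753% of genes: Tubb2a (means 1658 and 722 CPM), which overlapped in Cre libraries.

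Tubb3 did not follow Scn10a in the central axon controls. Controls 2 and 3 had 0 counts of Scn10a, which allows up to 0.384 and 0.37 CPM, yet held Tubb3 at 1091 and 1318 CPM, within the 1136 to 1744 CPM of the Cre libraries or just below it. Controls 1 and 4 had Scn10a at 2.1 and 29.9 CPM and Tubb3 at 1783 and 1026 CPM. The sum of 9 nociceptor markers was 98.7 to 424 CPM in these controls and 886 to 5155 CPM in the Cre libraries, whereas spinal neuron markers summed to 134 to 588 and 84.2 to 291 CPM. Peripheral axon control 4 also had 0 counts of Scn10a (up to 0.589 CPM), but Tubb3 was at 9.43 CPM there, from 48 counts, and Tuba4a at 0. Spinal neuron markers were at 0 in all 3 peripheral axon controls.

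**Figure D4:**
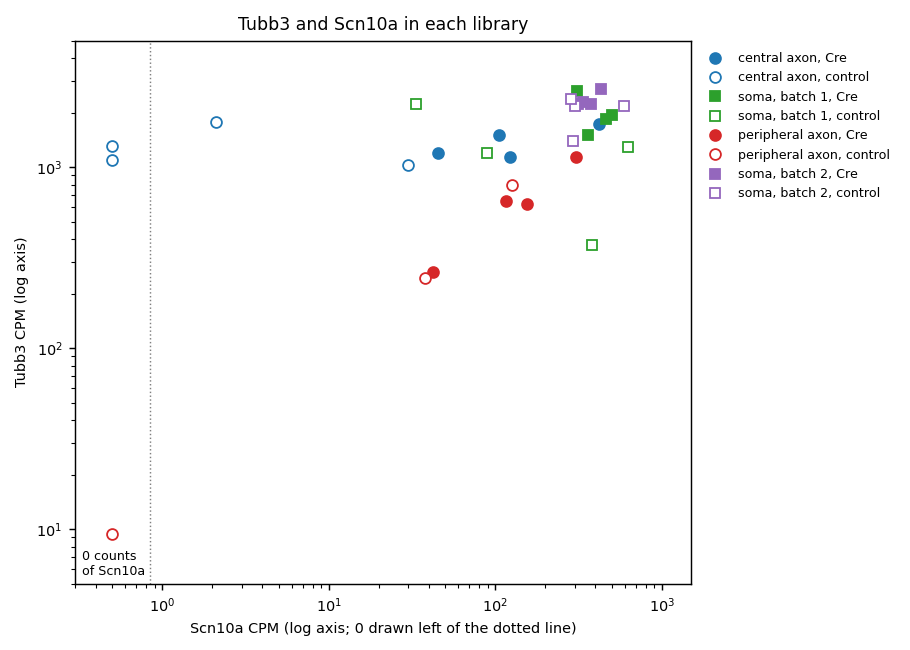
Each point is 1 of the 31 libraries, with Scn10a on the x axis and Tubb3 on the y axis, both in CPM on log axes; circles are axons, squares somas, filled points Cre and open points controls. Left of the dotted line are the 3 libraries with 0 Scn10a counts, of which 2 (central axon controls) held over 1000 CPM of Tubb3 and 1 (peripheral axon control 4) 9.43 CPM.

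The genes most like Tubb3 in their log2 group means (with 2 CPM added) over the 8 groups, of 10776 with a mean of at least 10 CPM, were Dpysl3 (Pearson r = 0.990), Ydjc (0.980), Ttl (0.979), Rab6b (0.977) and Hars (0.965). Dpysl3 encodes a collapsin response mediator protein and Ttl the ligase that puts the terminal tyrosine back on alpha-tubulin. Ttl had means of 146, 231, 99.8 and 223 CPM in the Cre libraries of central axon, soma of batch 1, peripheral axon and soma of batch 2. Among the tubulins, Tubb5 (0.912, rank 56), Tuba1a (rank 80) and Tubb2a (0.894) were nearest to Tubb3, and Tubb6 was farthest (-0.654). These are descriptions over 8 means that share batch and depth.

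Genes that fold, bind, cut or modify tubulin were counted from lists. Counts are to be read against the shares of all genes called, 8.63% higher and 5.11% lower in central axons and 18.7% higher and 12.5% lower in peripheral axons, and medians against 0.05 and -0.03. Of 21 tubulin folding genes (prefoldins, the TRiC/CCT chaperonin and cofactors), all tested, 9 were called lower and 0 higher in central axons, and 6 lower and 0 higher in peripheral axons. The list's median log2 fold change was -0.77 and -0.54. In central axons Pfdn6 fell by 1.61 (129 ± 36.9 against 291 ± 85.1 CPM, SD, n = 4 each) and Pfdn5 by 1.53 on the log2 scale. Both prefoldin subunits lost the call in 1 edgeR fit, Pfdn6 without central axon library 2 (adjusted p = 0.0506) and Pfdn5 without library 3 (0.0558). In peripheral axons the cofactor Tbcc fell by 1.53 and the prefoldin subunit Vbp1 by 1.68 on the log2 scale.

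Of 19 structural microtubule-associated proteins, 4 were called higher and 0 lower in central axons, and 0 higher and 7 lower in peripheral axons (5.11% and 12.5% of all genes were called lower), with medians of -0.23 and -1.09. Map2, a dendritic and somatic protein that binds along microtubules, was at 215 ± 133 CPM in central axons and 27.3 ± 20.9 CPM in the somas (2.56 on the log2 scale, SE 0.51, edgeR adjusted p = 0.00702). Dcx, doublecortin, was at 192 ± 28.9 against 68.6 ± 8.01 CPM (1.04, SE 0.26, edgeR adjusted p = 0.02). It lost the call in 5 of 8 edgeR fits with 1 library less, those without central axon library 2 or 4 or soma library 1, 2 or 3 (adjusted p from 0.0501 to 0.0707). In peripheral axons Tppp3 (1121 ± 313 against 4582 ± 1043 CPM) and Map1lc3b (177 ± 44.1 against 590 ± 97.3 CPM) fell by 2.23 and 1.94 on the log2 scale.

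The 4 stathmins, which bind free tubulin dimers, were all called lower in peripheral axons, where 12.5% of all genes were, Stmn1 at 333 ± 46.9 against 902 ± 271 CPM (-1.64, SE 0.33, edgeR adjusted p = 0.00361). Stmn4 (-1.58, adjusted p = 0.0231) lost the edgeR call without peripheral axon library 3 or soma library 5 or 6 (adjusted p = 0.0509, 0.0524 and 0.0525). In central axons 1 stathmin, Stmn3, was called lower (2120 ± 1025 against 4896 ± 377 CPM, -1.61, SE 0.44, edgeR adjusted p = 0.0299), a call lost without any 1 of 6 libraries (central axon 2, 3 or 4, soma 1, 2 or 3; adjusted p from 0.0578 to 0.106). Of 13 plus-end and minus-end binding proteins, 1 was called higher and 0 lower in central axons, Clip1 (151 ± 37.2 against 39.5 ± 10.5 CPM), near the 8.63% of all genes, and 3 lower and 0 higher in peripheral axons, Clip3 and Mapre2 among them (-1.83 and -1.23).

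Of 20 tubulin-modifying enzymes, 18 were tested in each comparison: 4 were called higher and 2 lower in central axons, and 2 higher and 5 lower in peripheral axons, where 18.7% and 12.5% of all genes were. The alpha-tubulin acetyltransferase gene Atat1 was at 144 ± 46.9 CPM in central axons and 12.9 ± 4.12 CPM in somas (3.02, SE 0.35, edgeR adjusted p = 0.000269). The deacetylase gene Hdac6, which acts on the same residue, was also higher (106 ± 27.7 against 14.4 ± 2.34 CPM, 2.41, SE 0.31, edgeR adjusted p = 0.000602). The polyglutamylase gene Ttll7 was lower (166 ± 58.2 against 488 ± 191 CPM, -1.95, SE 0.39, edgeR adjusted p = 0.00757). In peripheral axons Svbp, the partner of the vasohibin carboxypeptidases that remove the terminal tyrosine, was higher (155 ± 15.9 against 62.6 ± 13.8 CPM, 1.12, SE 0.27, edgeR adjusted p = 0.00879). Tpgs1 and Ttll1, subunits of the polyglutamylase complex, were lower there (-1.66 and -1.73).

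Of 8 severing enzymes all were tested in peripheral axons, with 3 called higher (18.7% of all genes were) and 0 lower, and 6 in central axons, with 0 called (13.7% of all genes). Fign, fidgetin, was at 94.3 ± 43.4 CPM in peripheral axons against 3.53 ± 1.29 CPM in somas, and rose (edgeR adjusted p = 3.29e-05). Katna1 (1.09, SE 0.36, edgeR adjusted p = 0.0399) lost the call in 6 of 8 fits with 1 library less, those without peripheral axon library 1 or 4 or soma library 5, 6, 7 or 8 (adjusted p from 0.0505 to 0.139), with RLE scaling (adjusted p = 0.0584) and without the low-count filter (adjusted p = 0.13). Of 8 genes of the tubulin mRNA feedback, 0 were called in central axons, and 1 was higher and 1 lower in peripheral axons: Cnot3, a subunit of the CCR4-NOT deadenylase (73.7 ± 13.9 against 24.6 ± 4.23 CPM), and Ttc5 itself (29.6 ± 3.72 against 65.2 ± 16.6 CPM, -1.33, SE 0.29, edgeR adjusted p = 0.00523). Of 10 other tubulin genes, 5 were tested in central axons with 0 called, and 6 in peripheral axons with 1 higher and 2 lower. Tuba1c, an alpha isotype closely related to Tuba1a and Tuba1b, rose to 23.4 ± 6.08 CPM from 3.95 ± 0.558 CPM (2.36, SE 0.44, edgeR adjusted p = 0.00234), and the gamma-tubulin gene Tubg2 fell by 2.28 on the log2 scale. The tissue markers given above moved with these lists too, and their part was not tested.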

How the data were processed

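Per the submitters' processing notes, reads were aligned with STAR 2.7.2b to mm10; the counting program, strand setting and handling of reads with several matches are not given in the sources used here. Libraries were made with a SMART-Seq v4 kit from RNA estimated at under 1 ng (somas) or under 100 pg (axons), per the labels' protocols. The authors deposited 2 tables of raw counts per Ensembl gene, 1 per batch, and all 55536 IDs matched GENCODE M21. Groups and batches came from the labels.

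CPM were computed from library totals, and per-kb levels from merged exon length. Tests used edgeR 4.0.16 in R 4.3.3 (filterByExpr, TMM, estimateDisp, glmQLFit, glmQLFTest) on the groups compared only, with Benjamini-Hochberg adjustment over all genes, and were checked on simulated data. Alternatives were RLE scaling, library size alone, no low-count filter, DESeq2 1.42.0, each library left out and the replicate number as a block. All pairs of replicates differed by more than counting noise. Named genes were the 10 tubulins plus, from 8 lists, up to 2 genes per list and direction in each axon-to-soma comparison (smallest adjusted p among genes called and not overlapping), and the 5 genes most like Tubb3. The tubulins and lists were chosen with earlier results of these data known. The coding ends of Tuba1a and Tuba1b are not reported here.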

Additional observations from a re-analysis of the deposited data

Results flagged for a closer look

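In 5 of 70 sets of 4 libraries, 1 library lay far from the other 3 by Dixon's gap criterion, which chance meets in about 1 in 20 sets. Tuba1a was at 3597 CPM in Cre soma library 3 of batch 1, against 2335 to 2454 CPM in the other 3. Tubb2b was at 1087 CPM in peripheral axon Cre library 2, against 150 to 233 CPM. Tubb3 was at 2716 CPM in Cre soma library 8 of batch 2, against 2235 to 2293 CPM. Tubb6 was at 347 CPM in soma control b of batch 1, against 1.83 to 40.4 CPM, and at 156 CPM in soma control 7 of batch 2, against 25.5 to 39 CPM.

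The axon-to-soma difference itself differed between central and peripheral axons for Tuba4a (2.35 on the log2 scale) and Tubb4a (2.32), the 2 tubulins called in that edgeR interaction test. In controls the axon-to-soma ratio of mean CPM was also higher for central than for peripheral axons in both genes, a contrast that was not tested.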

How the results depend on the processing

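Soma Cre against control in batch 1 and the batch 1 difference of differences were not followed gene by gene, and their tubulin medians changed sign. These medians, -1.62 and -0.37 in the main fit, were 0.10 and 1.10 without the low-count filter. With RLE scaling they were -1.32 and 1.33. Of the 70 tubulin fold changes followed in the other 7 comparisons, none changed direction with RLE scaling or no low-count filter, nor did the 69 compared with DESeq2, and none of these that was called by edgeR lost its call. DESeq2 gave no adjusted p for the remaining value, Tubb2b in peripheral axons against somas. The control ratio of Tubb6 with 1 control left out was computed after seeing the data. With library size alone 4 changed direction: Tubb2a (-0.04) and Tubb5 (-0.18) between Cre and control somas of batch 2, Tubb4a in central axons against somas (0.06) and Tuba1b in peripheral axons against somas (0.04). Leaving out 1 library at a time turned the direction of uncalled values only. For central axon Cre against control the ranges were Tuba1a -0.03 to 0.23, Tuba1b -0.24 to 0.12, Tuba4a -0.48 to 0.30, Tubb2a -0.15 to 0.14, Tubb2b -0.25 to 0.35, Tubb3 -0.03 to 0.37, Tubb4a -0.34 to 0.12 and Tubb5 -0.22 to 0.09. For peripheral axon Cre against control they were Tuba4a -0.16 to 1.98, Tubb4a -0.58 to 0.66 and Tubb6 -0.04 to 0.79. For soma Cre against control in batch 2, Tubb5 spanned -0.01 to 0.28, and for peripheral axon against soma Tuba1b spanned -0.50 to 0.03. For the batch 2 difference of differences the ranges were Tubb2b -0.56 to 1.21, Tubb3 -0.12 to 1.79 and Tubb5 -0.09 to 0.42, and for the central against peripheral difference Tubb2b -0.79 to 0.73. The cause was not tested.

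Counts of genes called moved as follows. Central axon Cre against control (2 called) gave 34 without the filter, 216 with DESeq2 and 0 to 5 with 1 library left out. Peripheral axon Cre against control (0) gave 27 with DESeq2. Soma Cre against control in batch 1 (516) gave 2244 with library size alone, 1700 without the filter, 1902 with DESeq2 and 0 to 3094 with 1 library left out (3094 without control 3, 0 without control 1, a or b). In batch 2 (0) it gave 21 with RLE, 257 with library size alone, 162 without the filter, 1160 with DESeq2 and 0 to 1826 with 1 library left out (1826 without control 5, 496 without control 7). Central axon against soma (1990) gave 3143 with DESeq2 and 822 to 2717 (942, 1049 and 822 without axon library 2, 3 and 4, and 1242 without soma library 1), and peripheral axon against soma (4818) 3220 to 6055. The batch 1 difference of differences (0) gave 1 with RLE, 320 without the filter, 582 with DESeq2 and 0 to 1111 (1111 without soma control 3), and its batch 2 counterpart (1) 23 without the filter, 343 with DESeq2 and 1 to 66 (66 without axon control 1, 25 without soma control 5). The central against peripheral difference (2187) gave 3290 with DESeq2 and 1394 to 2856 (1394 without soma library 8 of batch 2).

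Same-numbered libraries did not deviate together in every pair (correlations from -0.118 to 0.250), so the replicate block was run only as an alternative. The mean was highest for central axon against soma in Cre libraries, at 0.123 (-0.072 to 0.236), against -0.041 for differently numbered pairs. With the block, 2226 genes were called in central axon against soma, against 1990 without it. The block gave 1 gene in central axon Cre against control, 0 in batch 1 somas and 9 in the batch 1 difference of differences. Of the tubulin values followed with the block, 39 kept direction and call, and Tubb4a in peripheral axon Cre against control turned to 0.44. The only tubulin calls among them were those of Tuba1b and Tubb2b in central axons against somas. The block was not fitted for peripheral axon against soma, its difference of differences or the central against peripheral difference, so those calls were not tested with it. Soma controls a and b of batch 1 carry no replicate number and could not be paired.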

Other observations

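Soma control b of batch 1, the library with the highest Tubb6 level, also stood apart in rows that were looked at after their values were seen. It had 569 counts of the pseudogene Tubb4b-ps1, 626 of Tubb4b-ps2 and 538 of Tubb2a-ps2. Central axon control 4 was next, with 74, 84 and 112 counts. Each of the other 29 libraries had at most 22, 10 and 47 counts of these rows. Tuba1c was at 177 CPM (1415 counts) in the same soma control and at 37 CPM in the same central axon control. It was at most 29.9 CPM elsewhere.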
